A study of Drosophila melanogaster with 12 samples.

Results

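The comparison covered here sets testes arrested by mutation of aly against testes mutant for bam, with 3 arrays of each, 6 of the 12 arrays in the series. All males were Drosophila melanogaster of 1 day after eclosion, kept at 25 °C, and each RNA sample came from about 200 pairs of whole testes hybridised to 1 Affymetrix Drosophila Genome 2.0 array. The aly flies carried aly2 over aly5P, and the bam flies bam1 over bamΔ86. The other 6 arrays, 3 from sa1/sa2 flies and 3 from y,w flies (called yw), entered the same fit, and sa serves below as a second arrest mutant. The labels call the arrays of a genotype biological replicates. Members were chosen by label alone, and the difference aly minus bam was taken on log2(intensity + 16) for all 18769 non-control probe sets, which understates the change of dim genes.

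In the fly testis a germline stem cell produces a gonialblast that divides as spermatogonia, stops dividing, grows for days as a primary spermatocyte and then enters meiosis. The gene bam is needed for spermatogonia to stop dividing, so that bam mutant testes fill with germ cells that go on dividing. The product of aly is part of the testis meiotic arrest complex (tMAC), which resembles the Myb-MuvB transcription complex of other tissues. Without it germ cells become spermatocytes but enter neither meiosis nor spermatid differentiation. The gene sa encodes a testis form of a subunit of the general transcription factor TFIID (a testis TAF), and its mutants arrest at a like stage. The comparison therefore asks how the transcripts of arrested spermatocytes differ from those of dividing spermatogonia-like cells. These are whole testes, and fewer cells of a type and less RNA per cell cannot be told apart.

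Across all probe sets, arrays of 1 genotype correlated at r = 0.985 to 0.997, and aly arrays with bam arrays at 0.811 to 0.839. The mean SD between replicates was 0.114 in aly and 0.139 in bam on the log2 scale. Spermatocyte markers summarised by their mean log2 level stood at 12.29, 12.12 and 12.20 in the aly arrays, against 6.84, 6.88 and 6.92 in the bam arrays. Accessory gland markers, from an organ beside the testis, stood at 8.81, 8.53 and 9.26 in aly, against 12.76, 11.58 and 10.41 in bam. The bam arrays thus differ among themselves in accessory gland transcripts, with replicate 1 highest. The lowest correlation with another bam array was 0.985 for bam replicates 1 and 3, and 0.992 for replicate 2. The array numbers are treated as names only, and results that rest on bam replicate 1 are given with and without it.

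The mutated genes were read first. The bam transcript measured 651, 648 and 572 in aly testes, against 1174, 1094 and 948 in bam testes (-0.76 on the log2 scale, limma adjusted p = 0.00207), a difference under the 2-fold minimum. The aly transcript measured 132, 134 and 148 in aly, against 58.9, 58.0 and 83.3 in bam (0.91, adjusted p = 7.48e-04), also under 2-fold. Neither transcript was low in its own mutant, so neither label is checked by these values. The position of these probe sets in relation to the lesions was not analysed here. The defining markers were the germline helicase vas and the spermatocyte tubulin betaTub85D, and both went with the labels. The marker lists were chosen with earlier results of these data known, so their direction is not an independent check of the labels. The vas transcript, also listed below for stem cells and spermatogonia, measured 17.1, 21.1 and 18.1 in aly, against 445, 486 and 459.8 in bam. Of 6 germline markers 5 were lower in aly, with a median of -3.61, and of 8 spermatocyte markers 8 were higher, with a median of 6.09. The spermatocyte markers include all the testis TAFs, topi and tbrd-1, and the germline markers recur among the spermatogonia and piRNA genes. Their values are thus read again below. Spermatocytes are germ cells too, so lower germline markers are not read as a loss of germ cells. The betaTub85D transcript measured 5840.1, 5568 and 5882 in aly, against 32.2, 34.8 and 24.2 in bam.

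A gene was read at its brightest probe set and called where limma's Benjamini-Hochberg adjusted p was below 0.05 and the difference at least 2-fold. Of 11981 genes, 1954 were higher in aly (16.3% of genes tested) and 2230 lower (18.6%), together 34.9%. These shares are the background for every list count against bam below. Larger changes leaned the other way, since 496 of the higher and 261 of the lower genes differed by at least 8-fold. Over probe sets, 2223 were higher (11.8%) and 2825 lower (15.1%), together 26.9%. Of the 5123 probe sets with no gene or several, 174 were higher (3.4%) and 388 lower (7.57%), together 11.0%. The median difference over genes was 0.04. All 3 aly arrays lay above all 3 bam arrays for 4339 genes (36.2%) and below them for 4015 (33.5%). In aly minus sa, tested in the same fit, 944 genes were higher in aly (7.88%) and 1426 lower (11.9%). The counts of list members against sa below stand beside these shares.

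**Figure D1:**
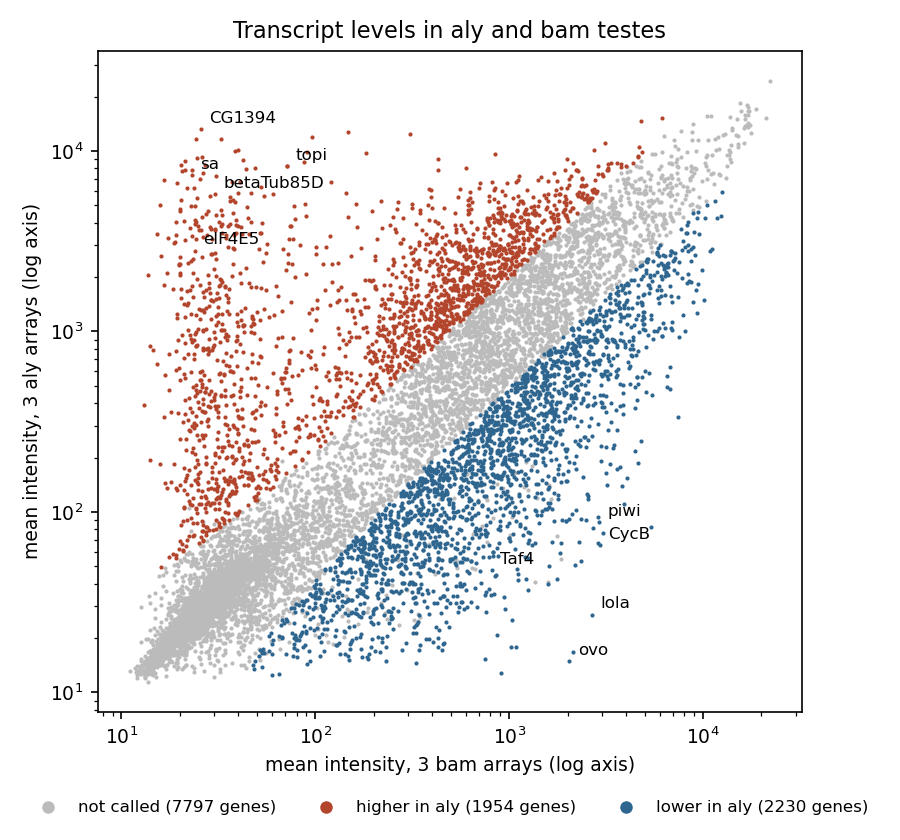
Mean intensity of each of 11981 genes in the 3 aly arrays (vertical) against the 3 bam arrays (horizontal), both on log axes, with 1954 genes called higher in aly in red, 2230 called lower in blue and the rest grey. A column of red points stands at bam intensities below about 50 and reaches that of CG1394, the highest, and few blue points lie in the matching region below the diagonal.

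The asymmetry was plain for genes that were dim in one genotype and bright in the other. In all, 179 genes were at 1000 or more in every aly array and below 50, called dim here, in every bam array, and 6 genes had the reverse pattern. Of the 179, 116 had only a CG or CR number for a name. In sa testes 134 of them were also at 1000 or more in every array, and in yw testes 133. Against sa, 49 were higher in aly and 10 lower, beside 7.88% and 11.9% of all genes. The 179 were chosen for high aly values, which favours calls above sa, so nothing is read from that count. One of them, CG4133, was below 50 in every yw array, and it is named after its values were seen: it measured 1502, 1452 and 1466 in aly, against 29.8, 28.2 and 31.1 in bam. In sa it measured 95.9, 109 and 157.

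The gene with the largest increase was the uncharacterised CG1394, which measured 14014, 12532 and 13025 in aly testes, against 22.8, 28.1 and 26.2 in bam testes, a difference of 8.31 (95% interval 8.16 to 8.46, adjusted p = 2.91e-13). The next were CG31226 (8.17) and CG12699 (7.91), also uncharacterised. The gene ocn, a testis gene related to the janus genes, measured 8876, 8697 and 8923 in aly, against 21.6, 22.8 and 19.3 in bam. The sperm leucyl aminopeptidase S-Lap2 (7.85) and the sperm-tail genes Mst98Cb (7.81), Mst84Da (7.71) and Mst84Db (7.59) were among the 12 largest. So were CG15219 (7.80), CG11106 (7.73), CG7907 (7.73) and CG14930 (7.65). The 12 were chosen among genes whose aly and bam arrays did not overlap.

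Between aly and sa the difference among these 12 was largest for CG7907. It measured 7451, 6882 and 6374 in aly, against 439, 463 and 512 in sa testes (aly minus sa 3.83, adjusted p = 9.90e-10). CG14930 was also higher in aly than in sa (1.32). The other 10 differed by less than 2-fold between the arrest mutants and so were not called, with differences between -0.41 for CG1394 and 0.97 for CG11106. Under 2-fold does not mean equal: the adjusted p was 1.92e-05 for CG11106, 2.65e-05 for S-Lap2 and 6.68e-05 for Mst98Cb, all higher in aly.

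The 12 largest decreases held several regulators. The germline transcription factor ovo measured 15.6, 14.9 and 14.1 in aly testes, against 1827, 2005 and 2303 in bam testes (-6.06, 95% interval -6.23 to -5.88, adjusted p = 1.88e-12). The BTB zinc-finger gene lola measured 25.9, 20.5 and 34.4 in aly, against 3055, 2310.5 and 2684 in bam (-5.98). The chromodomain remodeller kis (-5.12), falafel (flfl), a regulatory subunit of protein phosphatase 4 (-5.06), the deubiquitinase Usp10 (-5.05) and the RNA-binding protein orb (-5.01) followed. CG11893 (-6.03), CG14545 (-5.78), Oxp (-4.92) and the cytochrome P450 gene Cyp12d1-d (-4.94) belonged to the same group. The cyclin genes CycB (-5.19) and CycE (-4.99) completed it. In aly all 12 were at 91.7 or less.

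Of the 6 genes bright in every bam array and dim in every aly array, ovo, lola, CG11893 and Oxp are described above. The others, named by that pattern after their values were seen, were gnu and Pxt. The gene gnu, a regulatory subunit of the PNG kinase that acts in eggs, measured 40.1, 36.2 and 42.8 in aly, against 1476, 1552 and 1747 in bam. The peroxidase gene Pxt measured 41.8, 35.8 and 33.1 in aly, against 1316, 1349 and 1102 in bam. None of the 6 was called between aly and sa.

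**Figure D2:**
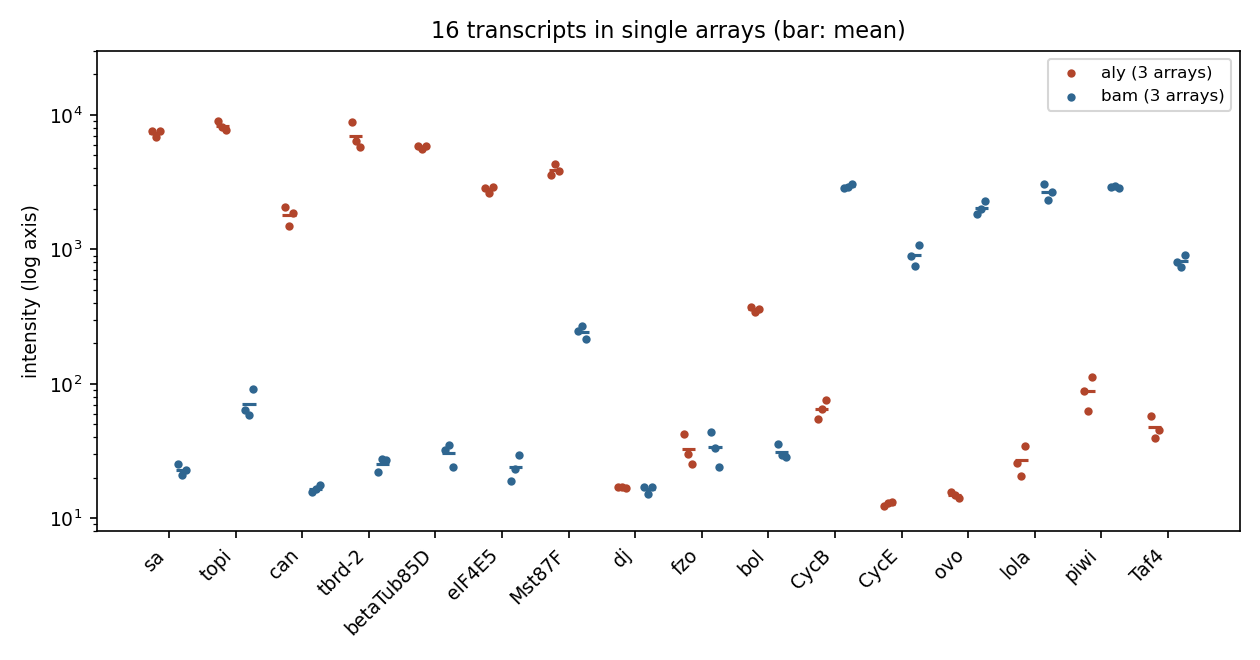
Intensity of 16 transcripts in single arrays on a log axis, aly in red left of bam in blue, with bars at the mean of 3 arrays. From sa to Mst87F all aly points lie above the bam points, dj and fzo overlap below 50, bol is again higher in aly, and from CycB to Taf4 all aly points lie below.

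Transcription factors that act in spermatocytes were examined next. tMAC holds the LIN-9 relative aly, comr, the zinc-finger protein topi, the LIN-54 relative tomb, the homeodomain proteins vis and achi, wuc, mip40 and the histone-binding protein Caf1-55. Of these 9 genes 6 were higher in aly and none lower, with a median difference of 3.19. The topi transcript measured 8962, 8134 and 7692 in aly testes, against 64.3, 58.5 and 90.8 in bam testes (6.58, adjusted p = 2.21e-11). Every aly array exceeded every bam array for topi, as for 36.2% of all genes. The other increases were wuc (5.77), comr (4.62), vis (3.77), tomb (3.19) and mip40 (1.20). The aly transcript itself, achi (0.68) and Caf1-55 (-0.08) were not called.

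In tests against sa, 3 tMAC genes were higher in aly and none lower. The topi transcript, at 536, 554 and 636 in sa, had an aly minus sa difference of 3.81 (adjusted p = 2.71e-09). The differences for vis (2.09) and tomb (1.27) were smaller. The somatic partners of the same complex family, with the E2F and Rbf genes, gave 1 higher and 2 lower of 8, with a median of -0.42. The repressive E2f2 was higher (1.56), the LIN-54 relative mip120 fell by 2.00 on the log2 scale and Rbf2 by 1.31, and Dp was not called (-0.70).

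All 5 testis TAFs were higher in aly, with a median of 4.74. These are the testis forms of TFIID subunits: sa of Taf8, can of Taf5, nht of Taf4, mia of Taf6 and Taf12L of Taf12. The sa transcript measured 7616, 6878 and 7589.6 in aly testes, against 25.3, 20.8 and 22.9 in bam testes (7.56, adjusted p = 2.04e-12). The can transcript measured 2055, 1488 and 1863 in aly, against 15.8, 16.4 and 17.7 in bam (5.79). The groups did not overlap for either gene, with aly above, as for 36.2% of all genes. The nht transcript measured 4296, 4270.2 and 4375 in aly, against 140.0, 162 and 138 in bam (4.74), so it was not dim in bam, and neither were mia (2.35) and Taf12L (2.19). Taf12L was lower in aly than in sa (aly minus sa -1.20), and mia was higher (1.17).

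Of the 13 general TAFs and TBP relatives, 5 were higher, 2 lower and 6 not called, with a median of -0.10. Taf4, the largest decrease, measured 58.0, 39.4 and 45.1 in aly testes, against 807, 735 and 901 in bam testes (-3.72, adjusted p = 1.10e-08). It thus moved opposite to its testis form nht. The TBP relatives Trf (2.43) and Trf2 (2.42) and the subunit Taf6 (1.21) were higher.

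Chromatin factors expressed in spermatocytes gave 6 higher and 2 lower of 10, with a median of 2.97. The testis bromodomain gene tbrd-2 measured 8788, 6377 and 5806 in aly, against 21.9, 27.6 and 27.1 in bam (7.38). The related tbrd-1 measured 9315, 8298 and 8429 in aly, against 80.3, 89.8 and 90.7 in bam (6.40), and tbrd-3 rose by 5.44. The zinc-finger gene kmg, whose product keeps somatic genes off in spermatocytes, rose by 5.24. In tests against sa, 6 of the 10 genes were higher in aly and 1 was lower. The largest of these differences was that of tbrd-2 (3.44, adjusted p = 8.47e-08), which measured 482, 785 and 621 in sa. The 2 genes lower in aly than in bam, named after their values were seen, were the export cofactor Nxt1 (-3.70) and the remodeller Mi-2 (-1.29).

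**Figure D3:**
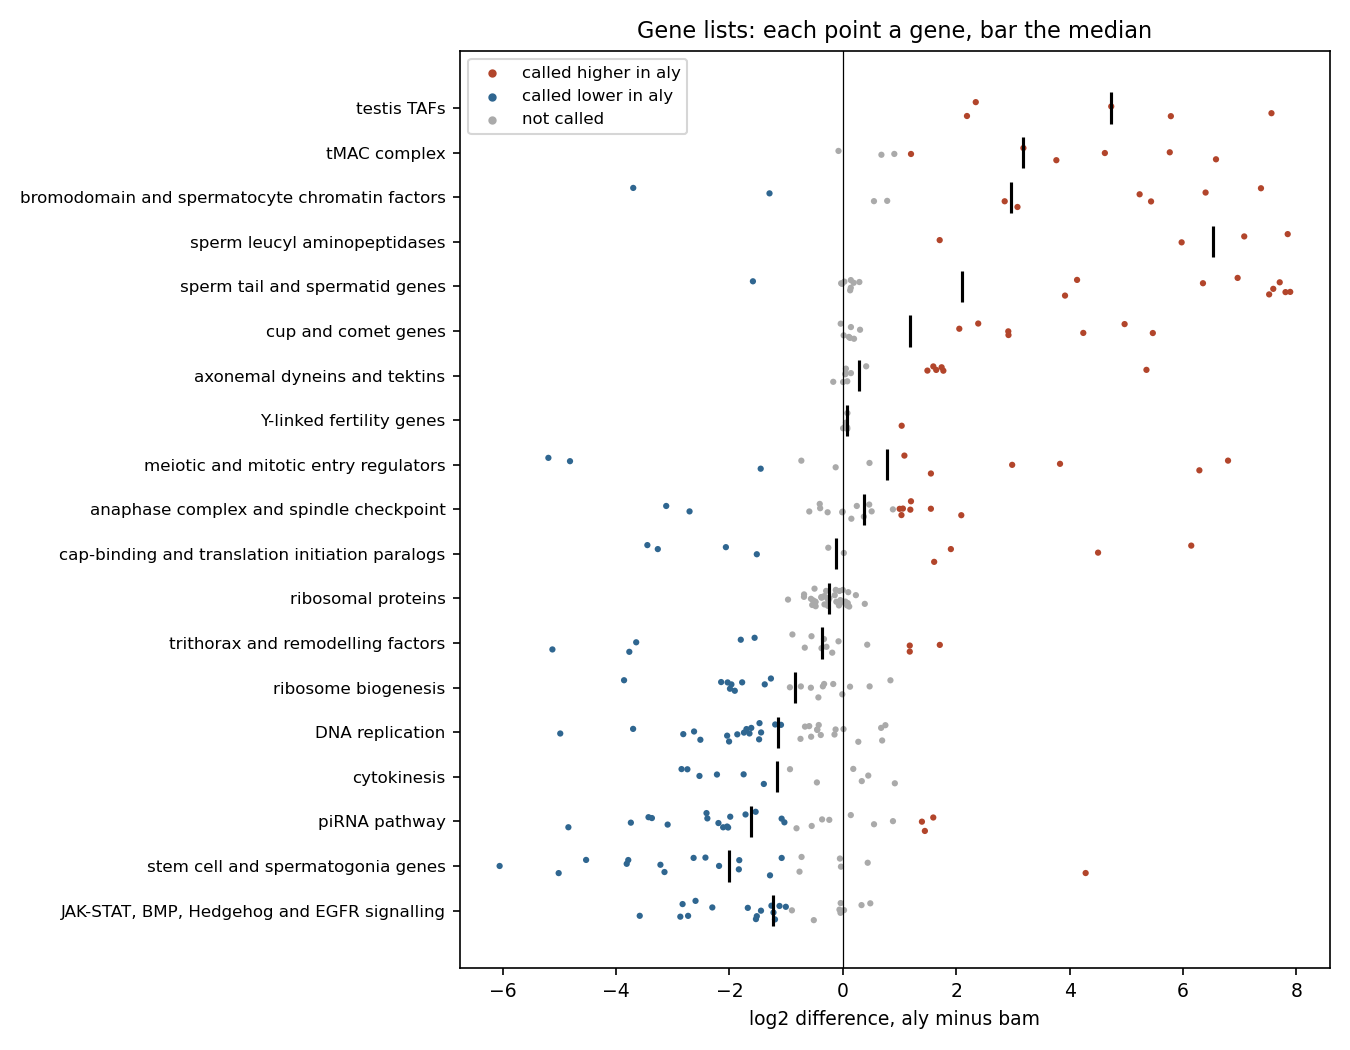
Log2 difference, aly minus bam, of each measured member of 19 gene lists, with red for called higher, blue for called lower, grey for not called and a black bar at the list median. Testis TAFs and S-Lap genes lie wholly to the right of 0, ribosomal proteins between -0.97 and 0.39, and the sperm tail list falls into a group near 0 and a group between about 4 and 8.

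Regulators of the meiotic divisions moved in both directions. Of 12 measured genes 6 were higher, 3 lower and 3 not called, with a median of 0.78. Of the 19 listed genes, CycA, Cdk1, stg, polo, Myt1, Wee1 and aurA were not analysed here. The gene fest, needed for cyclin B translation in spermatocytes, measured 3668, 2834 and 3937 in aly testes, against 17.2, 12.5 and 15.9 in bam testes (6.80, adjusted p = 2.12e-09). The RNA-binding protein Rbp4, which represses that translation before meiosis, measured 13545, 12569.6 and 11978 in aly, against 119, 146 and 179 in bam (6.29). Neither overlapped between the genotypes, with aly above as for 36.2% of all genes, and neither was called between aly and sa.

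CycB itself went the other way. It measured 55.1, 64.4 and 75.8 in aly testes, against 2844, 2920.1 and 3055 in bam testes (-5.19, adjusted p = 1.26e-10). In sa it measured 663, 675 and 658, which was above every aly array (aly minus sa -3.08, adjusted p = 1.38e-08). The meiotic Cdc25 phosphatase twe measured 70.5, 53.5 and 64.7 in aly, against 234, 179 and 187 in bam (-1.45), and it was also lower in aly than in sa (-1.12). The phosphatase 2A subunit tws was the remaining decrease (-4.81).

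The DAZ-family gene bol, which promotes twe translation, measured 373, 343 and 360.2 in aly, against 35.6, 29.6 and 28.7 in bam (2.99, adjusted p = 6.31e-06). Averaged over its probe sets, bol differed by 0.77 and was not called. In sa bol measured 3045, 2658 and 1138, and aly minus sa was -2.50 (adjusted p = 5.32e-05). CycB, twe and bol were therefore each lower in aly than in sa by the test of that difference.

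The anaphase complex and spindle checkpoint genes gave 7 higher, 2 lower and 12 not called of 21, with a median of 0.37, and only 4 were higher without bam replicate 1. Over all genes 16.3% were higher and 18.6% lower. The anaphase complex subunit Cdc23 (2.09) and the checkpoint kinase Mps1 (1.55) rose, whereas its activator fzr (-3.12) and separase, Sse (-2.70), fell. In the list of chromosome pairing and recombination genes 3 were higher, 4 lower and 5 not called of 12, with a median of 0.03. In tests against sa, 6 of these 12 were higher in aly and 1 lower. SA2, the cohesin-related gene used in male chromosome pairing, rose by 3.32 and was among those higher in aly than in sa (1.74). The autosome pairing gene tef fell by 3.03 on the log2 scale, the cohesion gene sunn by 1.54, and c(3)G, of the synaptonemal complex of females, by 3.25.

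Genes of the cap-binding complex gave 4 higher, 4 lower and 2 not called of 10. The cap-binding paralog eIF4E5 measured 2868, 2639.8 and 2896 in aly testes, against 18.9, 23.4 and 29.5 in bam testes (6.15). The paralog eIF4E7 measured 936, 768 and 914 in aly, against 23.2, 22.9 and 23.0 in bam (4.50). The scaffold eIF4G1 measured 334, 225 and 290.4 in aly, against 3309, 2964 and 3380.3 in bam (-3.45). The scaffold paralog eIF4G2, which acts in meiotic germ cells, measured 1438, 1007 and 1117 in aly, against 4828, 4941 and 5101 in bam (-2.06). Thus eIF4E5 and eIF4E7 were higher in aly, and both scaffolds were lower, as was the related NAT1 (-3.26). In tests against sa, 2 of the 10 were higher in aly and 4 lower, NAT1 among them (-1.65).

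Transcripts used after meiosis were a mixture of bright and silent genes in aly. Of 18 sperm tail and spermatid genes 9 were higher than in bam, 1 lower and 8 not called, with a median of 2.11. In tests against sa none was higher in aly and 7 were lower. The sperm-tail gene Mst87F measured 3601, 4278 and 3837 in aly testes, against 247, 268 and 215 in bam testes (3.92) and 9053, 7947 and 7879 in sa testes (aly minus sa -1.08). It was thus bright in both arrest mutants. The sperm-tail gene dj measured 17.1, 17.0 and 16.9 in aly, against 17.2, 15.1 and 16.9 in bam (0.03, adjusted p = 0.943) and 153, 125 and 62.4 in sa (-1.90). The spermatid mitofusin fzo measured 42.4, 30.1 and 25.3 in aly, against 44.1, 33.2 and 24.0 in bam (-0.03) and 483, 432 and 364 in sa (-3.19, adjusted p = 2.46e-07). For dj and fzo the aly and bam arrays overlapped below 50, and every sa array lay above both.

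The sperm chromatin list gave 4 higher, 1 lower and 6 not called of 11 against bam, and none higher and 5 lower against sa. It also holds the histone variant His2Av and the centromere genes cid, cal1 and Cenp-C, so these counts are not of sperm genes alone. The protamine-like Mst77F measured 229, 192 and 175 in aly, against 30.1, 40.4 and 33.5 in bam (2.08) and 8513, 7475 and 5505 in sa (aly minus sa -5.05, adjusted p = 1.01e-09). Prtl99C was higher than in bam by 4.34 and not called against sa (-0.20). The protamine gene ProtA was higher by 3.80, and the transition protein Tpl94D by 1.97. Tpl94D was lower in aly than in sa (-1.23).

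The sperm leucyl aminopeptidases, abundant sperm proteins, were higher in aly than in bam for 4 of 4 measured genes, with a median of 6.53. S-Lap7 measured 2400.2, 2639 and 2131 in aly testes, against 20.0, 24.0 and 22.2 in bam testes (5.98) and 8613, 8256 and 9407 in sa testes (-1.87). S-Lap5 measured 103, 117 and 109 in aly, against 21.6, 22.8 and 23.0 in bam (1.71) and 2409, 1896 and 2779 in sa (-4.22). S-Lap2 and S-Lap8 (7.08 against bam) were not called against sa, with aly minus sa differences of 0.91 and 0.49 that were under 2-fold but had adjusted p-values of 2.65e-05 and 0.00384. Against sa the family thus held 2 genes lower in aly and 2 with smaller differences of the opposite sign.

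Cup and comet genes, a class transcribed after meiosis in normal testes, gave 7 higher and 7 not called of 14, with a median of 1.18. Against sa, 1 was higher in aly and 6 lower. The gene hale measured 4332, 4425 and 3816 in aly, against 77.1, 76.4 and 82.9 in bam (5.47), and was the one higher in aly than in sa (1.17). The other large increases were schuy (4.97), m-cup (4.24) and r-cup (2.92).

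Axonemal dyneins and tektins gave 6 higher and 8 not called of 14, with a median of 0.28. The dynein assembly gene tilB measured 2045, 1937 and 1879 in aly, against 27.8, 34.3 and 34.2 in bam (5.36), and was not called against sa (0.02). The dynein heavy chains Dhc36C (1.77) and Dhc98D (1.74) were higher in aly than in both bam and sa. Tektin-C measured 166, 152 and 137 in aly, against 32.7, 48.7 and 32.1 in bam (1.65) and 2468, 2064 and 2472 in sa (-3.81). Of 7 measured genes of the Y-linked list, only ARY was called (1.04), at 54.3, 46.0 and 48.7 in aly. The call was lost without aly replicate 1, with median centring and with a pseudocount of 64. Among the other 6, the dynein gene kl-2 measured 20.9, 20.9 and 21.0 in aly, against 19.7, 19.9 and 17.3 in bam, dim in both. In yw it measured only 25.6, 68.2 and 41.1.

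Microtubule and centriole genes were mixed, and their counts stand beside 16.3% higher and 18.6% lower over all genes. Of 8 tubulins 2 were higher and 2 lower: betaTub85D rose, as given above, and alphaTub85E by 2.97, while betaTub56D fell by 1.49 and betaTub97EF by 1.37 on the log2 scale. Of 15 kinesins 5 were higher and 1 lower, with Klp59D at 357, 302 and 395 in aly, against 19.0, 19.5 and 20.2 in bam (3.36). Klp59D and Klp59C were lower in aly than in sa (-2.55 and -1.14). The one decrease was Klp98A (-2.54). Centriole and cilium genes gave 7 higher and 3 lower of 17, the share of lower genes being near that of all genes. The cartwheel protein Sas-6 (2.09) and the centriole cap protein Cp110 (1.74) were up. The pericentriolar Plp (-2.17) and the microtubule-binding chb (-1.69) were lower, although Plp averaged over its probe sets was at -0.79 and not called.

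Genes of spermatid individualization and caspases gave 4 higher, 2 lower and 5 not called of 11, beside 16.3% higher and 18.6% lower over all genes. The share of lower genes was thus near that of all genes. The gene nsr, an RNA-binding regulator of male fertility, measured 3737, 3304 and 4053 in aly, against 28.1, 29.7 and 33.0 in bam (6.32). The F-box gene ntc (3.19) and the caspase Dronc (2.58) also rose, while the caspase Dcp-1 fell by 2.10 on the log2 scale. Dronc varied among the bam arrays, at 397, 531 and 194. Both nsr (1.36) and ntc (1.00) were higher in aly than in sa.

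Many housekeeping proteins have a second gene used in the testis, and such pairs show whether the general form changes with its testis form. Both members were measured for 42 pairs, with 42 testis and 38 distinct general genes, and 16 further pairs were not analysed here. Of the testis members 22 were higher in aly than in bam, 1 lower and 19 not called, with a median of 1.22. Of the general members 2 were higher, 16 lower and 20 not called, with a median of -0.62. In 20 of 42 pairs the testis member was higher and the general one was not, and in 11 it was higher while the general one was lower.

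The widest gap was that of the ATP synthase beta subunits. ATPsynbetaL measured 4861, 4600.4 and 4596 in aly testes, against 33.1, 35.5 and 29.2 in bam testes (6.60). Its general form ATPsynbeta measured 2730.2, 2683 and 2979.9 in aly, against 11652, 12359.5 and 8511 in bam (-1.93). Neither gene overlapped between the genotypes, as for 36.2% (aly above) and 33.5% (aly below) of all genes. The genes thus moved in opposite directions. The same held in direction for betaTub85D and betaTub56D, for nht and Taf4, for the proteasome lid genes Rpn12R (6.74) and Rpn12 (-1.61), and for the cytochrome oxidase genes COX4L (6.34) and COX4 (-1.04). In the sixth pair ATPsynGL rose by 6.71 while ATPsyngamma was not called (0.02).

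**Figure D4:**
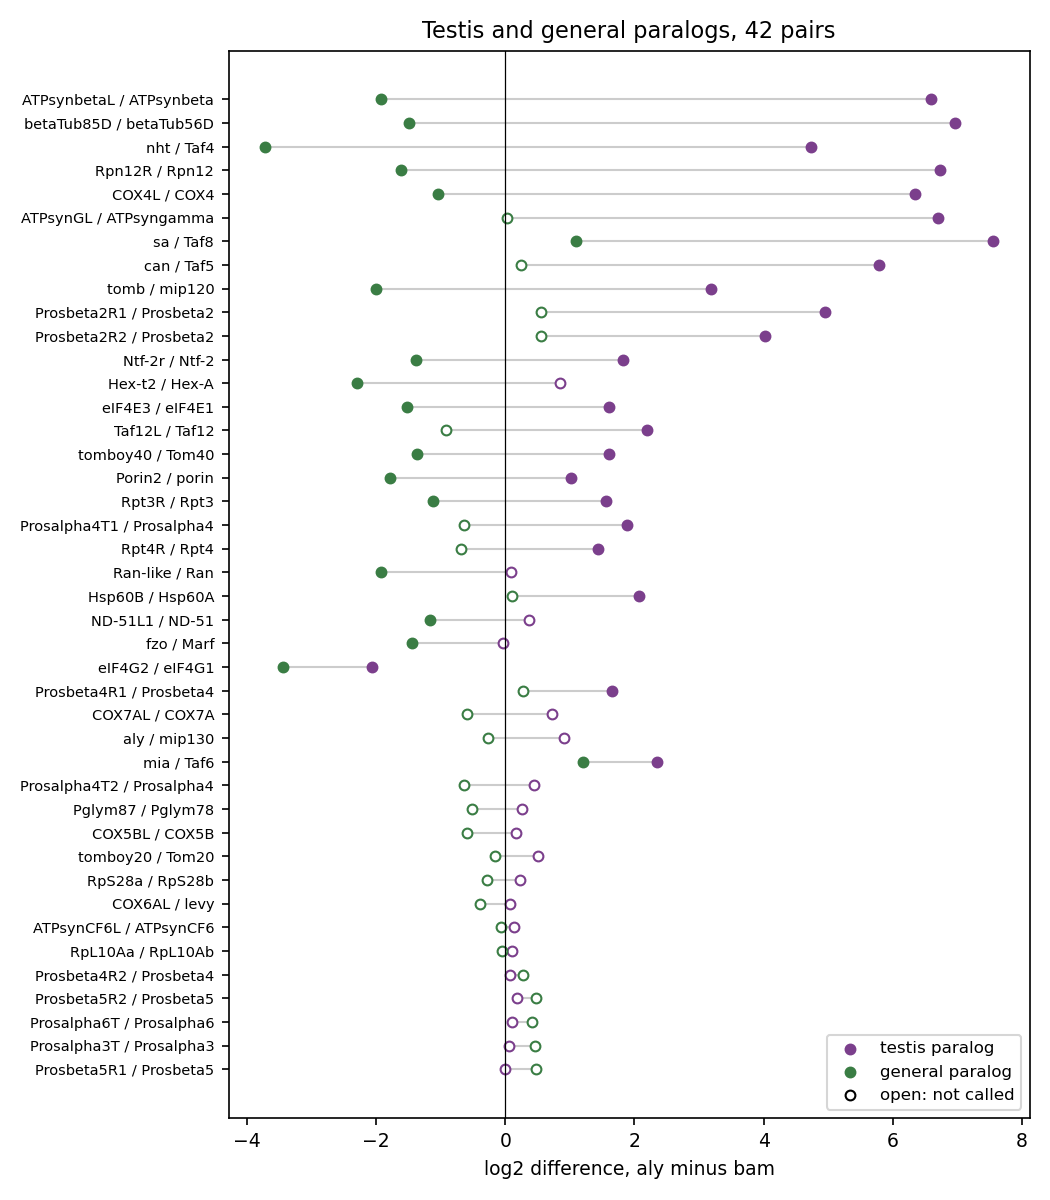
Log2 difference, aly minus bam, of the testis member (purple) and the general member (green) of 42 paralog pairs, ordered by the gap between them, with open circles for members not called. At the top ATPsynbetaL stands at 6.60 and ATPsynbeta at -1.93, and at the bottom both members of each pair lie within 1 unit of 0.

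At the other end, 3 pairs had the smallest gaps, and in each the testis member was dim in aly. ATPsynCF6L measured 26.1, 27.3 and 30.2 in aly, against 26.4, 21.1 and 25.1 in bam (0.13) and 1471, 1275 and 1299.8 in sa (aly minus sa -4.96, adjusted p = 4.88e-11). RpL10Aa measured 32.9, 37.9 and 28.1 in aly, against 27.6, 33.7 and 27.9 in bam (0.10) and 873, 729 and 996 in sa (-4.16). It was set as the testis member after its values were seen, so nothing about testis members is read from it. The third, Prosbeta4R2, was dim in aly (23.8, 27.9 and 25.6) and in sa (31.4, 29.2 and 31.2). Over all 42 testis members, 6 were higher in aly than in sa and 23 were lower, whereas of the 38 general members 1 was higher and 1 lower. These counts include the RpL10A and RpS28 pairs, which were both ordered after their values were seen. The shares over all genes were 7.88% higher and 11.9% lower, as given above.

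Genes of dividing germ cells were lower in aly. Of 32 DNA replication genes 17 were lower than in bam, none higher and 15 not called, with a median of -1.14. The G1/S cyclin CycE measured 12.3, 13.0 and 13.2 in aly testes, against 889.9, 751 and 1080.0 in bam testes (adjusted p = 2.81e-11). The helicase subunit Mcm3 measured 214, 251 and 219 in aly, against 3160.0, 3439.8 and 2866 in bam (-3.70). Primase Prim1 (-2.81) and the origin-binding Orc1 (-2.62) followed. These 4 genes, the furthest from 0 in the list, did not overlap between the groups. Over all genes the aly arrays lay below all bam arrays for 33.5%. In tests against sa, 13 of the 32 were higher in aly and none lower, Orc1 among them (1.34, adjusted p = 8.05e-06), so the second arrest mutant had the lower level of those 13.

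The list for stem cells and spermatogonia gave 14 lower, 1 higher and 5 not called of 20, with a median of -2.01. The translational repressor nanos measured 186, 158 and 215 in aly, against 4978, 4946 and 3996 in bam (-4.53). The germline RNA-binding gene orb measured 18.2, 15.9 and 19.5 in aly, against 1177, 1083 and 978 in bam. Its relative orb2, which acts in meiotic cells and spermatids, was the one increase: 1244, 1069 and 1317 in aly, against 48.0, 40.3 and 52.3 in bam (4.28). The paralogs thus moved in opposite directions.

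Among 26 piRNA pathway genes, which silence transposons in germ cells, 16 were lower, 3 higher and 7 not called, with a median of -1.63. The gene piwi measured 88.2, 63.1 and 112 in aly, against 2921, 2949 and 2838 in bam (-4.84). The HP1 relative rhi (-3.74), AGO3 (-3.43) and qin (-3.37) were the next largest. The 3 increases, named after their values were seen, were squ (1.60), Panx (1.45) and the piRNA methyltransferase Hen1 (1.40).

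Ribosome biogenesis genes gave 9 lower, none higher and 11 not called of 20, with a median of -0.84. The nucleolar Nopp140 measured 216, 155 and 200.1 in aly, against 3181, 2793 and 2909 in bam (-3.86). Nop56 (-2.15), the pseudouridine synthase Nop60B (-2.03) and the RNA polymerase I subunit Polr1B (-1.99) were lower as well. In tests against sa, 6 of the 20 were higher in aly and none lower. The ribosomal proteins themselves gave no call among 36, with a median of -0.25 and a range of -0.97 for RpL34a to 0.39. Cytokinesis genes gave 6 lower and 6 not called of 12, with the RhoGEF pbl (-2.85), nuf (-2.74), the formin dia (-2.53) and the kinase Rok (-2.22) lowest.

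Chromatin regulators shared with other tissues were read beside the shares over all genes, 16.3% higher and 18.6% lower. Of 6 genes of Polycomb complex 1 and PhoRC 4 were lower and 1 higher, with a median of -1.40. Sfmbt, the PhoRC subunit that reads methylated histones, measured 226, 185 and 268 in aly testes, against 2994, 3417 and 3891 in bam testes (-3.84). The DNA-binding phol (-2.34) and Psc (-1.66) were lower, and the ubiquitin ligase Sce was the increase: 4438, 4655 and 4506 in aly, against 913, 1124 and 578 in bam (2.41). In Polycomb complex 2, 2 of 8 were lower, Jarid2 (-1.63) and Su(z)12 (-1.62), a share near that of all genes. The methyltransferase E(z) was not called (-0.51) and was higher in aly than in sa (1.56).

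Trithorax and remodelling genes gave 5 lower, 3 higher and 9 not called of 17, with a median of -0.38, and nothing is read from the lean of so few calls. The methyltransferase trx measured 31.1, 29.9 and 27.8 in aly, against 587, 614 and 613 in bam (-3.77), and the remodeller kis averaged 53.6 ± 21.1 in aly, against 2339 ± 60.4 in bam (SD, n = 3 each). The remodelling subunit osa (-3.65) and the ATPase dom (-1.80) also fell. Of 9 heterochromatin and histone deacetylation genes 4 were lower, including HDAC1 at 582, 622 and 609 in aly, against 3401, 3795 and 3488 in bam (-2.53), and Sirt1 (-2.71). HDAC1 was higher in aly than in sa (1.63).

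Whole testes also hold muscle, cyst cells and attached organs, whose markers were read next. Of 11 muscle markers 9 were lower and none higher, with a median of -2.44, and their summed intensity was 3124, 3196 and 4315 in aly, against 21735, 19504 and 20947 in bam. The myosin light chain Mlc2 measured 59.3, 48.2 and 79.7 in aly testes, against 1041, 719 and 1454 in bam testes (-3.76), the titin relative bt 36.3, 26.6 and 82.2 in aly, against 1311, 879 and 1106 in bam, and Actn changed by -2.69. The summed muscle level of every aly array lay below that of every bam array.

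Of 13 accessory gland markers 12 were lower, with a median of -2.59, and 7 were lower at an adjusted p below 0.01. The seminal protein gene Acp36DE measured 317, 139 and 545 in aly, against 12648, 6456 and 3258 in bam (-4.39, adjusted p = 7.23e-04), and Acp26Ab measured 99.2, 62.2 and 105 in aly, against 4714, 935 and 259 in bam (-3.38). Summed over the list, aly arrays stood at 8468, 7867 and 11693, against 114615, 57751 and 28019 in bam. All 3 bam arrays were higher than all 3 aly arrays, and the bam arrays spread widely, with replicate 1 highest. Without bam replicate 1, Acp26Ab (-2.31) and the duct gene Dup99B (-2.85) were no longer called. Of 4 duct and seminal vesicle markers 2 were lower, EbpIII (-1.33) and Dup99B (-3.92), and 1 without bam replicate 1. The defining marker of the ejaculatory bulb, EbpII, was dim in both genotypes, with 20.4, 18.1 and 18.1 in aly, against 20.7, 20.5 and 21.7 in bam.

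**Figure D5:**
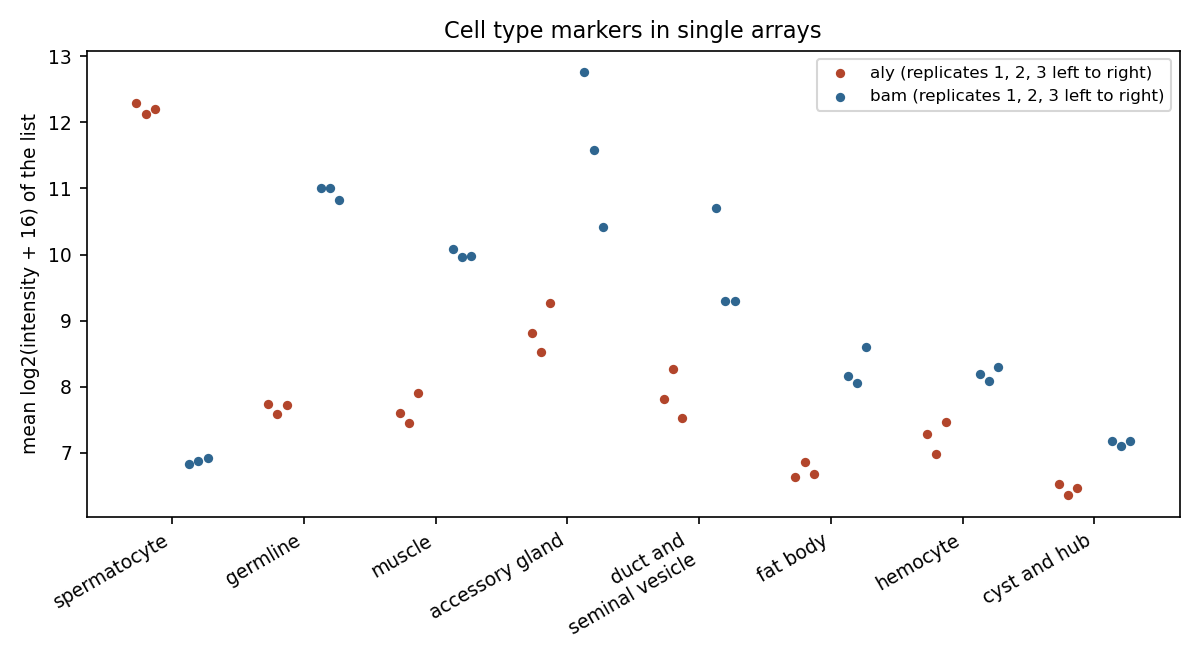
Mean log2(intensity + 16) of 8 cell type marker lists in single arrays, aly in red left of bam in blue, replicates 1 to 3 side by side. Spermatocyte markers are higher in all aly arrays, the other lists are lower in all of them, and the bam arrays spread between 10.41 and 12.76 for accessory gland markers. The germline list holds genes that recur in the spermatogonia and piRNA lists.

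The other somatic lists were read beside the 18.6% of all genes that were lower. Fat body markers gave 5 lower of 7, with their mean log2 level at 6.63, 6.86 and 6.68 in aly, against 8.16, 8.06 and 8.60 in bam. Hemocyte markers gave 2 lower of 5, the collagen gene vkg (-2.74) and the GATA factor srp (-2.30), while the hemolectin gene Hml had a difference of opposite sign that was not called (0.79, adjusted p = 0.0039). Cyst and hub markers gave 3 lower of 10, and 1 with quantile normalization or with arrays centred on ribosomal proteins, with zfh1 at 30.7, 20.0 and 21.9 in aly, against 179, 244 and 299.7 in bam (-2.66). The hub ligand hh (-1.12) and Sox100B (-1.20) were also called. For all 3 lists the mean log2 level in every aly array was below that in every bam array.

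Signalling genes of the BMP, EGFR, JAK-STAT and Hedgehog pathways (those of the Notch pathway were not analysed here) gave 15 lower, none higher and 8 not called of 23, with a median of -1.22. The transcription factor Stat92E measured 517, 331 and 470.4 in aly testes, against 3239, 3212 and 3041 in bam testes (-2.83). The Hedgehog effector ci measured 31.1, 25.8 and 37.2 in aly, against 329, 265 and 403 in bam (-2.87), and the Hedgehog transducer smo (-2.73) and S, which exports EGFR ligands (-3.58), were lower too. Glycolytic genes gave 5 lower, 1 higher and 6 not called of 12, with Hex-A (-2.29), Tpi (-1.67), Pgk (-1.45) and Eno (-1.45) lowest. Tpi was also lower in aly than in sa (-2.02). The muscle, fat body and gland markers moved with these lists, and their part in the result was not tested. Of 6 antimicrobial peptide genes 2 were lower, Drs (-2.99) and Mtk (-1.95), and of 6 heat shock genes 1 was higher, Hsp68 (1.49). The heat shock share is near the 16.3% of all genes that were higher, and nothing is read from it.

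For 1094 genes the array held several probe sets, which can read different transcripts of a gene. In 41 all were higher, in 63 all lower and in 614 none was called, while 338 had some called in 1 direction and 38 had probe sets called in opposite directions. The widest split was that of fs(2)ltoPP43. One of its 3 probe sets measured 2814, 2838 and 2504 in aly testes, against 209, 221 and 177 in bam testes (3.65), and another 53.0, 35.2 and 40.4 in aly, against 1320.5, 1177 and 1348 in bam (-4.47). For oaf the values were 5007, 4838 and 4601 in aly, against 555, 502 and 321 in bam (3.38) at one probe set. At another they were 42.3, 37.3 and 50.5 in aly, against 849.8, 671 and 1131 in bam (-3.90). In both genes the 2 probe sets were each well separated between the genotypes, in opposite directions.

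The same held for msl-3, of the dosage compensation complex (2.99 and -2.35), and for the splicing regulator ps (3.45 and -2.64). The corepressor CoRest gave 2.35 and -2.46, and the mitochondrial transport adaptor milt gave 1.90 and -2.68. CG1407 (4.68 and -2.05) and l(1)G0196 (2.7 and -2.0) complete the 8 widest splits. The direction given for such a gene elsewhere is that of its brightest probe set, and which transcripts the probe sets read was not analysed here.

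Neighbouring genes were compared along the chromosomes in RefSeq's gene order. Of 1945 higher genes with a measured next gene, 439 (22.6%) were followed by another higher gene, beside 16.3% of all genes. Of 2219 lower genes 501 (22.6%) were followed by another lower one, beside 18.6%. The longest run of higher genes held 7, named here for the run's length: CG1835, hydra, CG1324, CG15452, CG32507, CG15450 and CG1314. In it hydra, a gene of testis expression, measured 2508, 1961 and 2634 in aly, against 19.1, 17.2 and 24.1 in bam, and the differences ran between 1.42 for CG15450 and 6.62 for CG1324. The longest runs of lower genes held 5, one of them CG10553, CG10560, CG10562, CHKov1 and CHKov2. These shares describe the order of calls and were not tested.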

How the data were processed

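RNA of whole testes from 4 genotypes with 3 replicates each was measured on 12 arrays. The deposited intensities are linear values, 9.35 to 25798.63. Per the labels' design text, the authors normalized scanner files with RMA; the submitters' processing notes list MAS5, RMA and limma. No version is given in the sources used here, and which method made the deposited intensities is not settled, so the background correction is unknown. Scanner files, detection calls and scan batches were not used here. The number of arrays limits the precision.

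Of 18952 probe sets, 183 controls were left out. Platform annotation named 1 gene for 13646 of the other 18769, several for 402 and none for 4721. RefSeq Release 6 matched 13543, with 0 symbols changed. The deposited values went to log2(intensity + 16) and into limma 3.58.1 (R 4.3.3), lmFit and eBayes, with a mean per genotype over 12 arrays, 8 residual degrees of freedom, and two-sided p-values adjusted by Benjamini-Hochberg over all 18769 probe sets. The same fit gave aly minus sa. No filter was set. Python 3.11.15, pandas 2.3.3 and matplotlib 3.10.9 made tables and plots. Data for aly minus bam were simulated over 18769 probe sets under the model's own assumptions. Changes were placed only in probe sets with a mean of at least 50. On the log2 scale 48 of 50 changes of 3.0 and 44 of 50 of 1.5 were called. For -1.5 it was 44 of 50 and for -3.0 50 of 50, with 1 false call. Far fewer probe sets were changed than were called in the data, and simulated levels had no floor. These rates therefore check the fit and are not rates for this comparison.

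The 41 gene lists (518 of 638 symbols matched) and the paralog pairs were chosen with earlier results of these data known, so no list is independent evidence. The general and testis members of the RpL10A and RpS28 pairs were set in their present order after their values were seen. Genes are named by rule: a fixed set of regulators, the 12 largest called changes in each direction without overlap, in each list the 4 members furthest from 0, both members of the 6 widest and 3 closest pairs, and the 8 widest splits between probe sets. Other names are marked as chosen after their values were seen, or stand as members of a list or run whose count is given. CycA, of the fixed set, is not analysed here. Same-numbered aly and bam arrays deviated together at r = 0.0144, 0.0556 and -0.014, and differently numbered ones at -0.144 to 0.108. The main fit therefore does not pair them by number. Whether same-numbered arrays shared a batch was not tested. Alternatives were other scalings, pseudocounts, filters, probe set rules, fits, thresholds and each array left out. A fit of replicates 1 and 2 only was added after seeing the data.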

Additional observations from a re-analysis of the deposited data

How the results depend on the processing

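Over 21 alternatives, 4213 of 4278 values of the 204 named genes kept their direction and their side of the threshold, and 169 genes did so in every alternative; 26 values lost the call, 37 gained it and 2 reversed. The reversals came from averaging probe sets by gene, for milt (-0.04) and oaf (-1.21), whose probe sets oppose each other. With no fold minimum, 4133 probe sets were higher in aly and 4610 lower, and 3459 genes were higher and 3571 lower. Leaving out 1 array gave 1922 to 1996 genes higher and 2146 to 2303 lower, and 2182 to 2277 probe sets higher and 2731 to 2921 lower. The replicate numbers used as a replicate block gave 1954 genes higher and 2205 lower. With arrays centred on ribosomal proteins, 2361 genes were higher and 1874 lower (55.7% of calls higher, against 46.7%) with a median over probe sets of 0.27. Ribosomal proteins were 13.06, 13.19 and 13.05 in aly arrays, against 13.32, 13.34 and 13.33 in bam arrays, on the mean log2 scale. Among lists, accessory gland markers went to 7 lower at an adjusted p below 0.01, and cyst and hub markers to 1 lower with quantile normalization and with ribosomal centring. The anaphase and checkpoint list and the duct list also changed without bam replicate 1, as given above. The only call of the Y-linked list was lost in some alternatives. The aly transcript passed 2-fold with quantile normalization (1.01), ribosomal centring (1.14), a pseudocount of 1 (1.06) and without bam replicate 3 (1.05); the cause was not tested. Intensities below 50 carry no detection call, so small differences among them are not resolved here.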
